A study of Mus musculus with 20 samples.

Results

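Across the genome of C57BL/6 thymocytes at the CD4+/CD8+ double-positive stage, 2094 sites carried a peak of TFIIH and a peak of Taf1 in the same place without the usual chromatin marks of promoters or enhancers. Sites were selected on measured peaks of 5 lists. Each was a TFIIH peak that overlapped a Taf1 peak by 1 bp or more and overlapped no peak of H3K4me3, H3K4me1 or CBP. They made up 24.3% (95% Wilson interval 23.4 to 25.2) of the 8618 TFIIH peaks, out of 270514 peaks in all lists of the series. Their TFIIH peaks had a median width of 160 bp, close to the 171 bp to which reads had been elongated according to the name of the TFIIH track. Peaks of TFIIE, TBP and total RNA polymerase II (Pol II) each lay at more than 40% of them, peaks of TFIIB at 0.621%, of FAIRE open chromatin at 0.0955% and of ETS1 at none. Over all TFIIH peaks the shares were close for TFIIE (41.7%), TBP (38.9%) and Pol II (40.1%). They were higher there for TFIIB (14.8%), FAIRE (6.23%) and ETS1 (2.37%). At TFIIH peaks that met the rule except for having no Taf1 peak, TFIIB (0.695%), FAIRE (0.695%) and ETS1 (0%) were also rare. TFIIE (19.1%), TBP (14.4%) and Pol II (13.1%) were less frequent at those peaks than at the 2094 sites.

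The general transcription factors assemble with Pol II at start sites. TFIID, which holds TBP and the TAF subunits with Taf1 as the largest, binds the core promoter, TFIIA stabilises TBP on DNA and TFIIB bridges TBP and Pol II. TFIIF enters with Pol II, TFIIE follows and recruits TFIIH, whose helicase opens the DNA and whose kinase phosphorylates serine 5 of the Pol II C-terminal repeats. Active promoters usually carry H3K4me3, and enhancers usually carry H3K4me1 together with CBP, a histone acetyltransferase.

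The series profiled these cells, an intermediate stage of T-cell development, by chromatin immunoprecipitation and sequencing and by FAIRE, which recovers open chromatin without an antibody. All samples came from the thymus of the same strain and stage, and the labels name no mutation and no treatment. Of its 20 samples, 16 had a peak list, 1 per target, and the input, the rabbit immunoglobulin control and both RNA samples were not analysed here. The Taf1, TFIIB and CBP lists came from 1 replicate each, and the other lists from merged replicates, according to the file and track names. The cell type label was not checked against marker genes, since no gene annotation of the build of the lists, mm9, was used here. "Shared sites" are the 2094 sites, and "unmarked" means without an overlapping H3K4me3 or H3K4me1 peak.

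Each target had a single list, so replicate spread was unknown and no p-value was computed, and the Wilson intervals cover counting error only. The depth behind each list is unknown, so a site without a peak of a list may hold signal below the authors' threshold. Shared sites were set beside 3 groups cut from the same lists. These were 3308 unmarked TFIIH peaks without Taf1 and without CBP, 9077 unmarked Taf1 peaks without TFIIH and without CBP, and 1911 TFIIH peaks in H3K4me3 peaks. No difference between these groups could be tested against replicate error.

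Most overlap of Taf1 with TFIIH lay outside marked chromatin. Of 3095 TFIIH peaks that overlapped Taf1, 2568 (83.0%, 81.6 to 84.3) were unmarked, 360 lay in H3K4me3 peaks and 167 in H3K4me1 peaks only. Most TFIIH peaks of the whole list were also unmarked, with 6080 of 8618. CBP peaks overlapped 474 of the 2568 (18.5%, 17.0 to 20.0), and their removal left the 2094 shared sites. Over all 6080 unmarked TFIIH peaks, 5402 were free of CBP. Taf1 was found at 38.8% (37.5 to 40.1) of unmarked CBP-free TFIIH peaks, against 18.8% (17.1 to 20.7) of TFIIH peaks in H3K4me3. These values describe the lists that chose the sites. The 2094 sites met 2104 Taf1 peaks, with 14 sites meeting 2 Taf1 peaks and 4 Taf1 peaks serving 2 neighbouring sites.

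TFIIH peaks at shared sites had nearly uniform widths. Their quartiles were 140 and 170 bp, the most frequent width was 170 bp with 24.4% of the sites, and 80.4% lay between 130 and 190 bp. In that range were 56.2% of unmarked TFIIH peaks without Taf1 and 35.4% of TFIIH peaks in H3K4me3. The most frequent width itself was similar in these groups. It was 160 bp at unmarked TFIIH peaks without Taf1 (14.6% of them) and 170 bp at TFIIH peaks in H3K4me3 (7.85%). Wider than 250 bp were 15 shared sites (0.716%), 10 unmarked TFIIH peaks without Taf1 (0.302%) and 149 TFIIH peaks in H3K4me3 (7.80%). Widths of 60 bp or less were found at 79 shared sites. They were found at 481 of 3308 unmarked TFIIH peaks without Taf1 and 291 of 1911 TFIIH peaks in H3K4me3. The Taf1 peaks at the shared sites were as uniform, at 150 bp (median; quartiles 130 and 160), against 90 bp (quartiles 50 and 130) for unmarked Taf1 peaks without TFIIH.

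**Figure D1:**
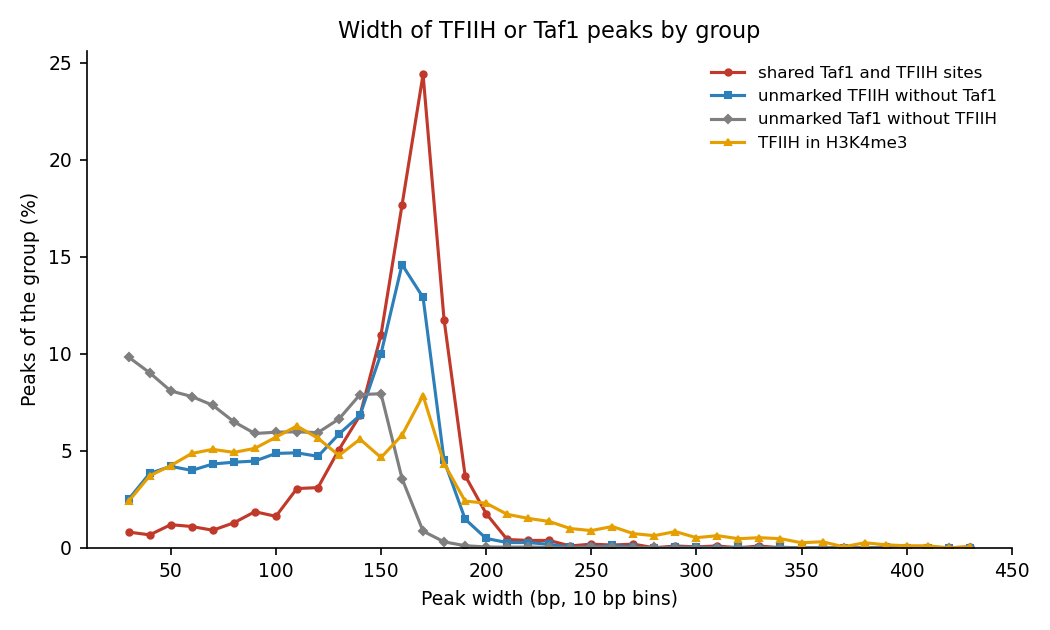
Width in bp (horizontal axis, bins of 10 bp) against the percentage of each group's peaks (vertical axis), for widths up to 430 bp; wider TFIIH peaks in H3K4me3 are not drawn. TFIIH peaks at shared sites gather at 150 to 180 bp with a mode of 170 bp. TFIIH peaks in H3K4me3 have the same mode but spread over a wide range, and unmarked Taf1 peaks without TFIIH are most often 30 bp wide.

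The paired peaks were closely aligned. Peak centres of TFIIH and Taf1 lay within 20 bp of each other at 74.4% of shared sites and more than 50 bp apart at 133 sites (6.35%). The median overlap was 130 bp, with quartiles of 100 and 150 bp, and the Taf1 peak lay wholly inside the TFIIH peak at 54.2% of sites. At the edge of the rule, 18 sites overlapped by 10 bp, a single bin of the tracks, among them chr6:23897531-23897730, which also had peaks of TFIIA, TFIIE, TFIIF, TBP and Pol II, and chr1:141878751-141878910, which had no peak of another list. Just outside it, 6 unmarked CBP-free TFIIH peaks adjoined a Taf1 peak without a shared base, for example chr12:94361491-94361660 (170 bp wide) and chr4:10392031-10392180 (150 bp wide).

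Area, the authors' sum of signal under the peak, was above the middle of both lists at shared sites, more so for Taf1. The TFIIH area at shared sites had a median of 20762.5 and quartiles of 15753.5 and 26957.6 in the authors' signal units, a median at the 64.8th percentile of the whole TFIIH list. The median was 15030.8 at unmarked TFIIH peaks without Taf1 and 14441.5 at TFIIH peaks in H3K4me3. The highest area, 176800, was above the highest at unmarked TFIIH peaks without Taf1 (118548) and below the highest at TFIIH peaks in H3K4me3 (320512). Taf1 areas at shared sites had a median of 26725.5, at the 78.6th percentile of the Taf1 list, against 12926.6 at unmarked Taf1 peaks without TFIIH.

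The 2 areas followed each other only weakly. Spearman's rho between TFIIH and Taf1 area was 0.133 over the 2094 sites, and 0.158 for the mean signal per bp. By chromosome it ran between 0.0151 and 0.279 with a median of 0.127, above 0 on all 20 chromosomes that held shared sites. At the 360 TFIIH peaks in H3K4me3 that overlapped Taf1 it was 0.203. Within each list area followed width closely, with rho of 0.952 for TFIIH and 0.948 for Taf1, and rho between the widths of the paired peaks was 0.105. The sites of 1 list share a library and its depth and are not replicates, and no p-value was computed.

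**Figure D2:**
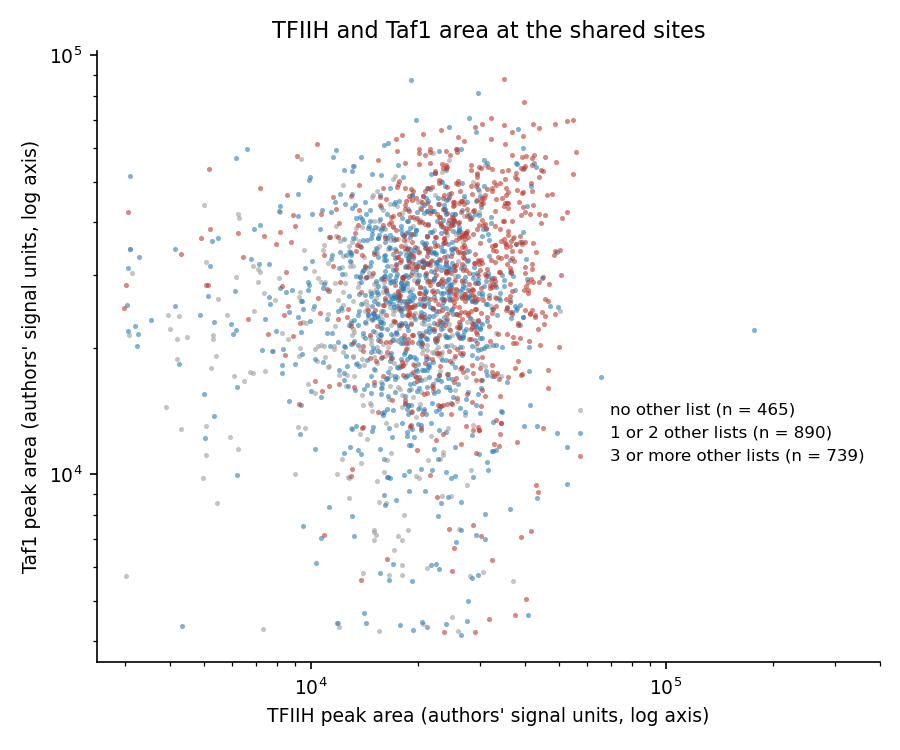
TFIIH peak area (horizontal axis) against Taf1 peak area (vertical axis) at the 2094 shared sites, both in the authors' signal units on log axes, with 1 point per site coloured by the number of other lists with a peak there. The cloud has little slope (rho 0.133), and sites with 3 or more other lists lie more to the right than sites with none.

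Shared sites lay far from marked chromatin. The nearest H3K4me1 peak was at a median of 54770 bp with quartiles of 9425 and 411028 bp, and the nearest H3K4me3 peak at a median of 94150 bp. Of all shared sites, 130 (6.21%) had an H3K4me3 or H3K4me1 peak within 1 kb, 1546 (73.8%) had none within 10 kb and 892 (42.6%) had none within 100 kb. The nearest approaches were 10 bp to H3K4me1, 20 bp to H3K4me3 and 20 bp to CBP. Unmarked TFIIH peaks without Taf1 were placed alike, with medians of 48380 bp to H3K4me1 and 84485 bp to H3K4me3. The nearest FAIRE peak lay at a median of 184840 bp from shared sites, against 179200 bp from unmarked TFIIH peaks without Taf1 and 1080 bp from TFIIH peaks in H3K4me3.

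The lists that the rule did not use showed which other factors had peaks there. TBP, the DNA-binding partner of Taf1 in TFIID, had peaks at 945 shared sites, which is 45.1% (43.0 to 47.3), against 14.4% (13.2 to 15.6) of unmarked TFIIH peaks without Taf1, 4.96% (4.53 to 5.42) of unmarked Taf1 peaks without TFIIH and 68.97% (66.9 to 71.0) of TFIIH peaks in H3K4me3. Over all TFIIH peaks the share with TBP was 38.9%. TFIIA peaks lay at 35.0% (33.0 to 37.1) of shared sites, against 13.6% (12.5 to 14.8) of unmarked TFIIH peaks without Taf1 and 20.6% (18.9 to 22.5) of TFIIH peaks in H3K4me3, with 23.3% over all TFIIH peaks. TFIIA was thus more frequent at shared sites than at TFIIH peaks in H3K4me3, whereas TBP was less frequent there. These groups also differed in Taf1, which the rule required at shared sites but only 18.8% of TFIIH peaks in H3K4me3 had. CBP peaks were not excluded from the H3K4me3 group. TFIIA was not counted at the TFIIH peaks in H3K4me3 that had Taf1.

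TFIIB was nearly absent from the shared sites. Its peaks lay at 13 of them, or 0.621% (0.363 to 1.06), against 0.695% (0.464 to 1.04) of unmarked TFIIH peaks without Taf1 and 59.7% (57.5 to 61.9) of TFIIH peaks in H3K4me3, with 14.8% over all TFIIH peaks. The small difference between the first and the second of these groups changed sign with the setting. Of the 13 sites with TFIIB, 6 had an H3K4me3 or H3K4me1 peak within 1 kb, against 124 of the 2081 sites without TFIIB (5.96%). Without sites that close to a mark, TFIIB remained at 0.356% of shared sites.

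Total Pol II had peaks at 888 shared sites, or 42.4% (40.3 to 44.5), against 13.1% (12.01 to 14.3) of unmarked TFIIH peaks without Taf1, 4.94% (4.51 to 5.40) of unmarked Taf1 peaks without TFIIH and 79.3% (77.5 to 81.1) of TFIIH peaks in H3K4me3, with 40.1% over all TFIIH peaks. TFIIF, which enters with Pol II, was at 11.0% (9.72 to 12.4) of shared sites, against 2.99% (2.46 to 3.63) of unmarked TFIIH peaks without Taf1 and 4.24% (3.42 to 5.24) of TFIIH peaks in H3K4me3. Its share over all TFIIH peaks was 7.06%. The TFIIF list held only 1262 peaks. A TFIIF peak was at 608 of all 8618 TFIIH peaks, among them the 230 shared sites with TFIIF. These counts are of TFIIH peaks, not of TFIIF peaks. TFIIE, which recruits TFIIH, had the highest share at shared sites, its interval overlapping that of TBP, with 46.2% (44.1 to 48.4), against 19.1% (17.8 to 20.5) of unmarked TFIIH peaks without Taf1 and 70.1% (68.0 to 72.1) of TFIIH peaks in H3K4me3, and with 41.7% over all TFIIH peaks.

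**Figure D3:**
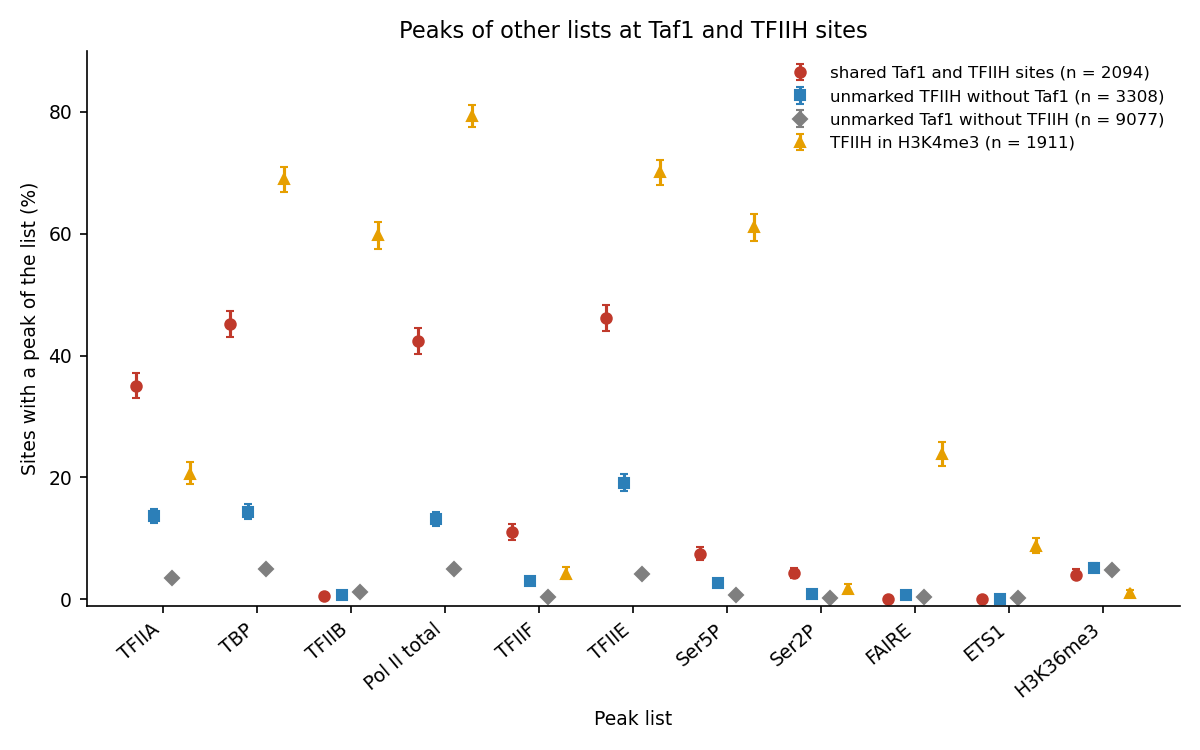
Percentage of sites with a peak of each list that the rule did not use (vertical axis), for shared sites, unmarked TFIIH peaks without Taf1, unmarked Taf1 peaks without TFIIH and TFIIH peaks in H3K4me3; points are shares and bars are 95% Wilson intervals for counting error. Shared sites are the highest group for TFIIA (35.0%), TFIIF (11.0%) and Ser2P (4.25%), and lie near 0 for TFIIB, FAIRE and ETS1. All shared sites have Taf1 by the rule, against 18.8% of TFIIH peaks in H3K4me3.

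Phosphorylated forms of Pol II were rarer than total Pol II. Ser5P, the form near initiation and the product of the TFIIH kinase, was at 7.45% (6.40 to 8.65) of shared sites, against 2.75% (2.25 to 3.37) of unmarked TFIIH peaks without Taf1 and 61.1% (58.9 to 63.2) of TFIIH peaks in H3K4me3, with 18.5% over all TFIIH peaks. At sites with a total Pol II peak, Ser5P was found at 114 of 888 shared sites (12.8%, 10.8 to 15.2), against 1143 of 1516 TFIIH peaks in H3K4me3 (75.4%, 73.2 to 77.5). The Pol II peaks of these 2 groups were not alike. Their median areas stood at the 37.5th and the 92.3rd percentile of the Pol II list, and Ser5P was not compared at like Pol II area. Ser2P, the elongating form, was at 4.25% (3.47 to 5.20) of shared sites, against 0.816% (0.562 to 1.18) of unmarked TFIIH peaks without Taf1 and 1.78% (1.28 to 2.48) of TFIIH peaks in H3K4me3, with 2.4% over all TFIIH peaks.

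FAIRE and ETS1 peaks were missing from nearly all shared sites and from nearly all unmarked TFIIH peaks without Taf1. FAIRE peaks overlapped 2 of them (0.0955%, 0.0262 to 0.348), against 23 unmarked TFIIH peaks without Taf1 (0.695%, 0.464 to 1.04) and 23.8% (22.0 to 25.8) of TFIIH peaks in H3K4me3, with 6.23% over all TFIIH peaks. The difference of -0.600 points between the shared sites and unmarked TFIIH peaks without Taf1 had a 95% counting interval of -0.953 to -0.258. In settings of which the first and the second were chosen after seeing the data, it shrank to -0.210 points (-0.572 to 0.107) within 130 to 190 bp, to -0.148 points (-0.626 to 0.324) between the area quartiles of the shared sites and to -0.235 points (-0.716 to 0.244) in the upper 50% of the TFIIH and Taf1 lists, all intervals that include 0. Both FAIRE-positive shared sites were on chromosome 2. The site at chr2:25080051-25080270 had H3K4me3 230 bp and CBP 130 bp away, and the site at chr2:75510061-75510230 had its nearest H3K4me1 peak at 9610 bp. ETS1, a T-cell transcription factor, overlapped 0 of 2094 shared sites, which allows a share of up to 0.143%. It likewise overlapped 0 of 3308 unmarked TFIIH peaks without Taf1, which allows up to 0.0907%, and it was at 0.187% (0.117 to 0.300) of unmarked Taf1 peaks without TFIIH, 8.74% (7.55 to 10.1) of TFIIH peaks in H3K4me3 and 2.37% over all TFIIH peaks. H3K36me3, a mark of transcribed gene bodies, covered 4.06% (3.29 to 4.99) of shared sites, against 5.14% (4.44 to 5.94) of unmarked TFIIH peaks without Taf1 and 1.05% (0.679 to 1.61) of TFIIH peaks in H3K4me3, with 3.75% over all TFIIH peaks.

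The higher shares at shared sites than at unmarked TFIIH peaks without Taf1 were seen along the genome. On all 20 chromosomes with shared sites, TBP, Pol II, TFIIE and TFIIA were each more frequent at shared sites, and TFIIF was so on 19, Ser2P on 18 and Ser5P on 17. TFIIH peaks without Taf1 were narrower, with a median of 140 bp, and of lower area, so both groups were also compared within 130 to 190 bp, a comparison chosen after seeing the data. There the difference was 26.9 points for TBP, against 30.7 points over all widths, and 25.1 points for Pol II, against 29.3. Within the same band it was 22.0 points for TFIIE, against 27.1, and 17.0 points for TFIIA, against 21.4. Between the area quartiles of the shared sites, also chosen after seeing the data, TBP differed by 25.6 points and TFIIE by 19.3 points.

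Peaks of Pol II, TBP and the phosphorylated forms of Pol II were narrower at shared sites than at TFIIH peaks in H3K4me3. Their median areas were below the middle of their own lists. Pol II peaks there had a median width of 120 bp, against 350 bp at TFIIH peaks in H3K4me3, and the median of their areas stood at the 37.5th percentile of the Pol II list, against the 92.3rd percentile. TBP peaks measured 100 bp, against 250 bp, with a median at the 40.4th percentile, against the 89.2nd. Ser5P peaks measured 130 bp at shared sites, against 310 bp, and Ser2P peaks 220 bp, against 530 bp. With the Pol II and TBP lists cut to their upper 50% by area, Pol II was at 8.69% and TBP at 13.7% of shared sites.

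TFIIA, TFIIE and TFIIF peaks at shared sites ranked higher in their own lists. TFIIA peaks had a median width of 160 bp and a median area at the 79.4th percentile of the TFIIA list, against 170 bp and the 83.2nd percentile at TFIIH peaks in H3K4me3. TFIIE peaks measured 160 bp at the 59.7th percentile, against 270 bp at the 90.5th, although the track names give a read elongation of 171 bp for TFIIA, TFIIF and TFIIH and of 176 bp for TFIIE. TFIIF peaks measured 140 bp at the 59.0th percentile, against 130 bp at the 54.0th, so TFIIF was the 1 of these lists whose peaks were not narrower and did not rank lower at shared sites. In its upper 50% by area, TFIIA still had peaks at 31.5% of shared sites. The centres of these peaks fell on the TFIIH peak, within 20 bp at 82.5% of the sites with TFIIE, 77.8% with TFIIA, 78.8% with Pol II and 67.8% with TBP.

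Shared sites differed in how many of the 11 lists not used by the rule had a peak. None did at 465 sites (22.2%), 477 sites had 1, 413 had 2, 345 had 3, 242 had 4 and 152 had 5 or more. The mean was 1.96 lists, against 0.733 at unmarked TFIIH peaks without Taf1, 0.255 at unmarked Taf1 peaks without TFIIH and 3.99 at TFIIH peaks in H3K4me3. The mean over all TFIIH peaks is not given here, so 1.96 is not set against the whole list. Over all TFIIH peaks, TFIIE (41.7%), TBP (38.9%) and Pol II (40.1%) were nearly as frequent as at shared sites. TFIIA (23.3%) was rarer over all TFIIH peaks than at shared sites, and TFIIB (14.8%) and Ser5P (18.5%) were more frequent. The factors came together in part. Of shared sites with a Pol II peak, 65.1% (61.9 to 68.2) also had TBP, against 30.4% (27.9 to 33.1) of shared sites without Pol II, and TFIIE was at 64.4% (61.2 to 67.5), against 32.8% (30.2 to 35.5). The contrast was larger at TFIIH peaks in H3K4me3. TBP was at 83.0% of those with Pol II, against 15.2% of those without. TFIIE was at 82.3%, against 23.3%.

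Among TFIIA, TFIIE, TFIIF, TBP and total Pol II, the most frequent combination of peaks was TFIIA, TFIIE, TBP and Pol II without TFIIF, at 164 sites (7.83%). It was followed by TFIIE, TBP and Pol II at 140 sites (6.69%), TFIIE alone at 6.49% of sites, TBP alone at 134 sites, TFIIA alone at 108 and Pol II alone at 97. All 5 were present at 70 sites (3.34%), and none of the 5 at 502 sites (24.0%). TFIIF was seldom without the others: it was alone at 2 sites, while 77.8% (72.0 to 82.7) of the shared sites with TFIIF had TFIIE and 75.7% (69.7 to 80.7) had Pol II.

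Sites of higher TFIIH area had more of the other factors. From the lowest to the highest quintile by TFIIH area, the mean number of lists went from 1.26 to 3.04. Over the same quintiles TFIIE went from 27.9% to 73.0%, TBP from 28.4% to 65.4%, Pol II from 26.7% to 64.4% and TFIIA from 27.0% to 51.3%. TFIIB stayed below 1% in every quintile, with 0.239% in the lowest and 0.955% in the highest. Ranked by Taf1 area the spread was smaller, with means of 1.55 lists in the lowest and 2.63 in the highest quintile. Spearman's rho with the number of lists was 0.401 for TFIIH area and 0.245 for Taf1 area over the 2094 sites. The median TFIIH area of the 465 sites with no other list was 16832.8, and that of the 31 sites with 6 lists was 34355.8.

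**Figure D4:**
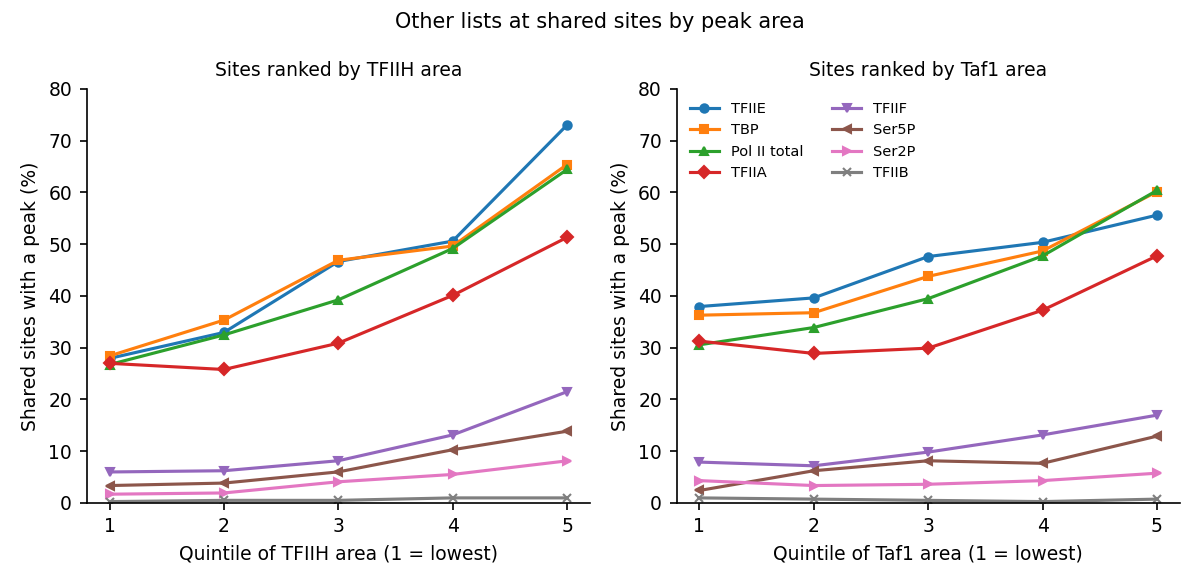
Percentage of shared sites with a peak of each list (vertical axis) in quintiles of the sites ranked by TFIIH area (left) or Taf1 area (right), from lowest to highest. TFIIE goes from 27.9% in the lowest to 73.0% in the highest quintile by TFIIH area, while TFIIB stays below 1% throughout.

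Single sites show the range. The shared site of highest TFIIH area was also the widest, chr11:99326141-99326570, with 430 bp, a TFIIH area of 176800, a Taf1 peak of 130 bp with an area of 22138.5, and peaks of TFIIA and TFIIE. Its area was far above that of the next, chr5:123261801-123262060, which had 65785.5 and a TFIIE peak. The third, chr19:11337471-11337690, had an area of 55705.2 and peaks of TFIIA, TFIIE, TFIIF and Pol II. It was followed by chr1:196369171-196369370 (54734.2) with TFIIE, TBP and Pol II, and chr6:75538241-75538440 (54627.7) with TFIIA, TFIIE, TFIIF, TBP, Pol II and Ser5P. All 5 had a TFIIE peak and none had TFIIB, FAIRE or ETS1.

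The other wide sites were chr10:53633361-53633690 and chr2:61032701-61033030 with 330 bp each, and chr5:136462431-136462740 and chr7:104642371-104642680 with 310 bp each. The site on chromosome 10 had TFIIA, TFIIE, TBP and Pol II, and that on chromosome 7 had TFIIE, TFIIF, TBP and Pol II. The site on chromosome 2 had TFIIE only, and the site on chromosome 5 had no peak of the 11 lists although its TFIIH area of 50397.5 ranked as number 12. At these 5 widest sites the Taf1 peak measured 130 to 150 bp, so the Taf1 peak had the usual width where the TFIIH peak did not.

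Of 6 sites with 7 lists, the 5 of highest TFIIH area are named here. Those at chr1:82325971-82326150, chr3:119452941-119453120 and chr14:106730521-106730690 had the same makeup, which was TFIIA, TFIIE, TFIIF, TBP, Pol II, Ser5P and Ser2P. The site at chr8:90854741-90854920 had Ser2P and H3K36me3 with TFIIA, TFIIE, TFIIF, TBP and Pol II. These 4 sites were 170 or 180 bp wide and at least 5310 bp from the nearest H3K4me1 peak. The remaining site, chr2:25080051-25080270, was the only 1 of the 5 with TFIIB and FAIRE and lay 230 bp from H3K4me3, as given above.

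High TFIIH areas also occurred without any of the 11 lists. After the site on chromosome 5 already named came chr12:69706051-69706230, chr9:82053541-82053720, chr1:69472501-69472680 and chr1:48611771-48611950, each 180 bp wide, with TFIIH areas from 33273.2 to 37414.7. Their Taf1 peaks measured 160, 40, 110 and 120 bp. Widths of 180 bp and areas of this size thus occurred both with 7 other lists and with none.

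Shared sites were spread evenly over the autosomes. Density was taken per Mb of the span covered by peaks of any list. It ran from 0.661 sites per Mb on chromosome 17 to 1.01 on chromosome 11, with a median of 0.837, so the highest was 1.53 times the lowest. For unmarked TFIIH peaks without Taf1 that ratio was 1.76, and for TFIIH peaks in H3K4me3, which ran from 0.400 on chromosome 14 to 1.61 on chromosome 11, it was 4.02. For the 9077 unmarked Taf1 peaks without TFIIH the ratio was 1.43. Counting error widens such a ratio more in a smaller group, so 1.43 and 1.53 do not rank how evenly these groups were spread. Chromosome X held 20 shared sites, or 0.124 per Mb, which was 0.143 times the autosomal density of 0.861. The same ratio was 0.228 for unmarked TFIIH peaks without Taf1, 0.303 for unmarked Taf1 peaks without TFIIH and 0.181 for TFIIH peaks in H3K4me3. In every one of the 16 lists chromosome X was sparser than the autosomes, with ratios from 0.0473 for TFIIF to 0.417 for H3K4me3. Chromosome Y had no TFIIH peak.

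**Figure D5:**
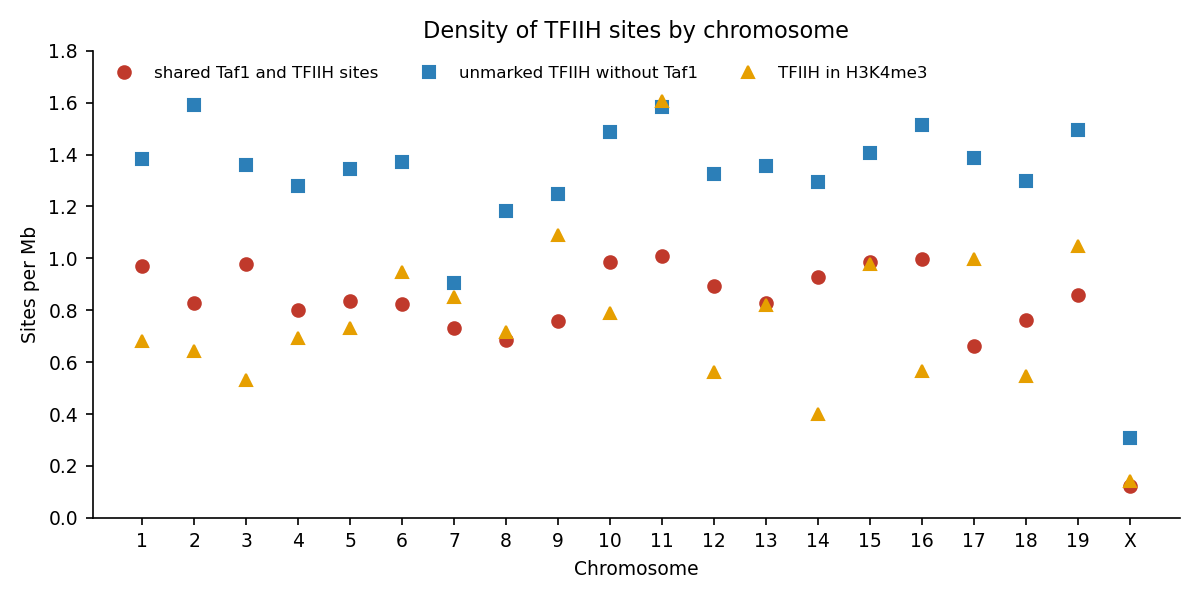
Sites per Mb of covered span (vertical axis) on each chromosome (horizontal axis), 1 point per chromosome and group. Shared sites lie between 0.661 and 1.01 per Mb on the autosomes and at 0.124 on chromosome X, while TFIIH peaks in H3K4me3 vary between 0.400 and 1.61.

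Neighbouring shared sites were far apart. The median gap was 739205 bp, and only 5 of 2074 gaps (0.241%) were under 1 kb and 25 (1.21%) under 10 kb. TFIIH peaks in H3K4me3, at a similar density, had 270 of 1891 gaps (14.3%) under 1 kb and a median gap of 223660 bp. Unmarked TFIIH peaks without Taf1 had 1.09% of gaps under 1 kb. In the 3 closest pairs both TFIIH peaks met the same Taf1 peak. These were chr3:42986331-42986360 with chr3:42986371-42986490, separated by 10 bp, chr5:24942051-24942300 with chr5:24942311-24942390, separated by 10 bp, and chr12:75393231-75393300 with chr12:75393371-75393400, separated by 70 bp. The 1 Mb stretch with the most shared sites held 8, at chr12:74638601-75393400, where 5 of the 8 had TBP, 4 had TFIIA, 4 had TFIIE and 1 had Pol II. Both sites of the chromosome 12 pair just named are among these 8, and both are counted for TFIIA and TFIIE.

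Whether antibody background accounts for the shared sites was not tested, because the input and the rabbit immunoglobulin control were not analysed here. Values that bear on it differed between lists. According to the labels, antibodies of the same vendor were used for Taf1, TFIIA, TFIIB, TFIIE, TFIIF, TFIIH, total Pol II and ETS1. Their shares of the shared sites, apart from Taf1 and TFIIH, ran from 0% for ETS1 and 0.621% for TFIIB to 46.2% for TFIIE. Over all TFIIH peaks the same lists had 2.37%, 14.8% and 41.7%. At unmarked TFIIH peaks without Taf1 they had 0%, 0.695% and 19.1%. The TBP antibody came from another vendor, and TBP had 45.1%, against 38.9% over all TFIIH peaks. FAIRE, which uses no antibody, had 0.0955%. The median TFIIH width of 160 bp was close to the read elongation of 171 bp. The lists differ in size, so these shares do not isolate the antibody. Beads coated with Protein-G were used for all immunoprecipitations but that of ETS1, for which the beads carried an anti-rabbit antibody.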

How the data were processed

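Peak lists of 15 immunoprecipitation targets and FAIRE were used. Each deposited list gives chromosome, start, end and area, which per the file names is the area under the authors' signal track. Per the track names deposited by the authors, all tracks but FAIRE had artefact regions removed, were scaled and were background-subtracted. The build was mm9, per the submitters' processing notes. The sources used here do not give the aligner, peak caller, threshold or read depth. Peak ends fell on 10 bp bins. Sites are given by position, and no mm9 genome or annotation was used here.

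Overlap meant 1 bp or more. Where a TFIIH peak met several Taf1 peaks, that of longest overlap was taken. A gap is the number of bases between peaks. Areas were ranked only within a list. Intervals of shares are Wilson intervals at 95% and reflect counting error alone; for a share of 0 the limit is 3 counts. Intervals of differences combine those of both shares (Newcombe). The sites, groups and lists were chosen with earlier results of these data known. Sites were named by rules on area, width, number of other lists, spacing and overlap. Alternatives covered overlap, threshold, distance to marks, CBP, sex chromosomes and the anchoring list. On simulated data, overlaps, gaps and counts were tested against known answers. The tools were matplotlib 3.10.9 for plots, pandas 2.3.3 for tables, scipy 1.17.1 for intervals and ranks, and numpy 2.4.6 under Python 3.11.15.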

Additional observations from a re-analysis of the deposited data

How the results depend on the processing

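No paired analysis was possible because each target has 1 list and the labels give no replicate numbers. Differences are shared sites minus unmarked TFIIH peaks without Taf1, in percentage points. Neither the autosomes alone nor Taf1 peaks as anchors moved a share beyond its counting interval, and the median width was 160 or 170 bp throughout. With overlap of 50% of both peaks, rho was 0.199 and the TBP share 47.5%. With the TFIIH and Taf1 lists in their upper 50% by area, 1232 sites met the rule, and shares (differences) were 39.9% (14.4) for TFIIA, 55.8% (21.6) for TFIIE, 54.5% (27.1) for TBP and 51.7% (26.8) for Pol II, with 14.4% for TFIIF and a difference of -0.235 (95% interval -0.716 to 0.244) for FAIRE, against -0.600 as reported. With CBP sites kept, shares were 38.0% for TFIIA, 50.2% for TFIIE, 49.1% for TBP, 13.2% (9.71) for TFIIF and 47.2% (32.2) for Pol II. With the counted list in its upper 50% by area, which by construction holds fewer peaks, they were 31.2% (20.3) for TFIIE, 6.69% (5.08) for TFIIF, 13.7% (10.5) for TBP and 8.69% (6.55) for Pol II, with 31.5% for TFIIA and 0.191% for TFIIB. Without H3K4 peaks within 1000 bp, TFIIB was at 0.356%. Within 130 to 190 bp, a setting chosen after seeing the data, they were 48.6% (22.0) for TFIIE and 47.4% (26.9) for TBP, with differences of 17.0 for TFIIA, 25.1 for Pol II and -0.210 (-0.572 to 0.107) for FAIRE. Between the area quartiles of the shared sites, also chosen after seeing the data, they were 32.8% (15.1) for TFIIA and 9.27% (5.94) for TFIIF, with differences of 19.3 for TFIIE, 25.6 for TBP, 23.6 for Pol II and -0.148 (-0.626 to 0.324) for FAIRE. The TFIIB difference of -0.0745 turned to 0.0808 with 50% overlap, 0.246 in the upper 50% of the TFIIH and Taf1 lists and 0.0336 without H3K4 peaks within 1000 bp. The cause was not tested. The unknown depth of each list limits every statement that a peak is missing.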
